A study of Mus musculus with 24 samples.

Results

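The simple epithelial keratins described here are Krt7, Krt8, Krt18, Krt19, Krt20 and Krt23, the cytokeratins of pancreatic ducts and of other single-layered epithelia. They were taken by symbol, as members of this gene family, and make up 6 of the 19895 entries of the gene table. All 6 had reads in every one of the 24 libraries, so that 6 of 6 passed the filter on zero counts that left 11438 genes to be tested. Organoids, which are self-organising epithelial cultures grown in a gel, came from ductal isolates of the pancreas of wild-type C57Bl/6J mice (N) or from pancreatic tumours of KPC mice (KP). KPC mice carry Pdx1-Cre and mutant alleles that stay silent until Cre removes a stop cassette, among them a Trp53 allele that encodes R172H, in 1 copy beside a wild-type one. Pdx1-Cre acts in the epithelium of the developing pancreas, so the mutations are switched on in all lineages of that epithelium and not in ductal cells alone. Both organoid types were exposed for 1 h to vehicle (DMSO) or to 10 nM CR-31, a rocaglate that inhibits eIF4A, the RNA helicase that opens the start of an mRNA for the ribosome. There were 3 replicates of each of these 4 conditions, and from every one of the 12 lysates total mRNA and polysome-associated mRNA, that is mRNA carrying 3 or more ribosomes, were sequenced separately. The sources used here give no age for the mice and do not say whether replicates were separate cultures or animals, so p-values measure only the spread between these samples.

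Keratins are the intermediate filament proteins of epithelial cells, and each filament is built from pairs of a type I and a type II keratin. Krt8 (type II) and Krt18 (type I) are the first pair made by simple epithelia and protect such cells against mechanical and metabolic stress. Krt7 (type II) and Krt19 (type I) mark duct-like epithelia, and antibodies to them are used to tell ductal tumours of the pancreas from other tumours. Krt20 (type I) is typical of the gut and the urothelium, and Krt23 (type I) is a less studied keratin of glandular and gut epithelium. In mouse, Krt18 lies beside Krt8 within the cluster of type II genes, whereas the other type I keratins lie in a cluster on another chromosome.

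Counted reads per library ranged from 47308461 to 267463046, with a median of 102984735.5, and Krt20, the least abundant member, still had between 343 and 7095 reads. The labels call the cultures normal and ductal adenocarcinoma organoids, and 7 of 7 other ductal epithelium markers (Sox9, Cftr, Spp1, Epcam, Cdh1, Car2 and Muc1) were measured in every library. Their summed level was 2253 to 5270.5 CPM (reads of a gene scaled to the size of its library) in N and 1211 to 2783 CPM in KP. Markers of acinar, endocrine and endothelial cells summed to at most 0.343 CPM in any library, with Cpa1, Ins1, Ins2 and Gcg at 0 in all, and fibroblast markers to at most 0.866 CPM, with Col3a1 at 0. Immune markers summed to 4.47 to 24.5 CPM in N and 1.76 to 8.38 CPM in KP. Of the 7 ductal markers 4 were called lower in KP in polysome-associated mRNA with vehicle, by the test described below, namely Spp1 (log2 difference -2.53), Sox9 (-1.49), Cdh1 (-1.08) and Epcam (-0.84), and the same genes except Cdh1 in total mRNA, where 22.2% and 15.4% of all genes were called lower in these fractions. The median of the 7 was -0.84 and -0.32. The part of these markers in the keratin results was not tested.

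The libraries of N replicate 3 stood apart. Over all tested genes, its polysome-associated vehicle library correlated with its total CR-31 library at r = 0.88 and its total vehicle library with its polysome-associated CR-31 library at r = 0.83, whereas like fractions of the pair correlated at only 0.58 and 0.65. In N replicates 1 and 2 like fractions were the most alike, with r between 0.89 and 0.91. In KP replicate 1 the total vehicle library was likewise closer to the polysome-associated CR-31 library (r = 0.84) than to the total CR-31 library (r = 0.69). The labels were kept as given. Where its removal changed a call or the sign of a difference between the types, the value without it is also given, an alternative chosen after the data were seen.

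Levels of different keratins can be compared only per transcript length, for which the RPKM values (reads scaled to transcript length and library size) that the authors deposited were used. Krt18 had the highest RPKM of the 6 genes in 20 of 24 libraries, Krt8 in 3 and Krt19 in 1, and Krt20 was the lowest in 24 of 24. The full order Krt18, Krt8, Krt19, Krt7, Krt23, Krt20 held in 16 libraries. Krt18 ranged from 1097 to 2925 RPKM (median 1696) and Krt8, its partner, from 839 to 2491 (median 1498), so that these neighbours in the order overlapped widely. Krt19 lay between 586 and 1684 RPKM (median 1226) and Krt7 between 349.8 and 853 (median 552). Krt23 was far below the main keratins at 36.9 to 202 RPKM (median 78.1), and Krt20 reached only 3.72 to 25.2 RPKM (median 7.04). Among the 11438 tested genes, the median rank by RPKM was 80 for Krt18, 82.5 for Krt8, 98.5 for Krt19, 180.5 for Krt7, 1023.5 for Krt23 and 5489.5 for Krt20. Thus 4 of the keratins were among the most abundant messages of these organoids, while Krt20 was near the middle of all genes.

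**Figure D1:**
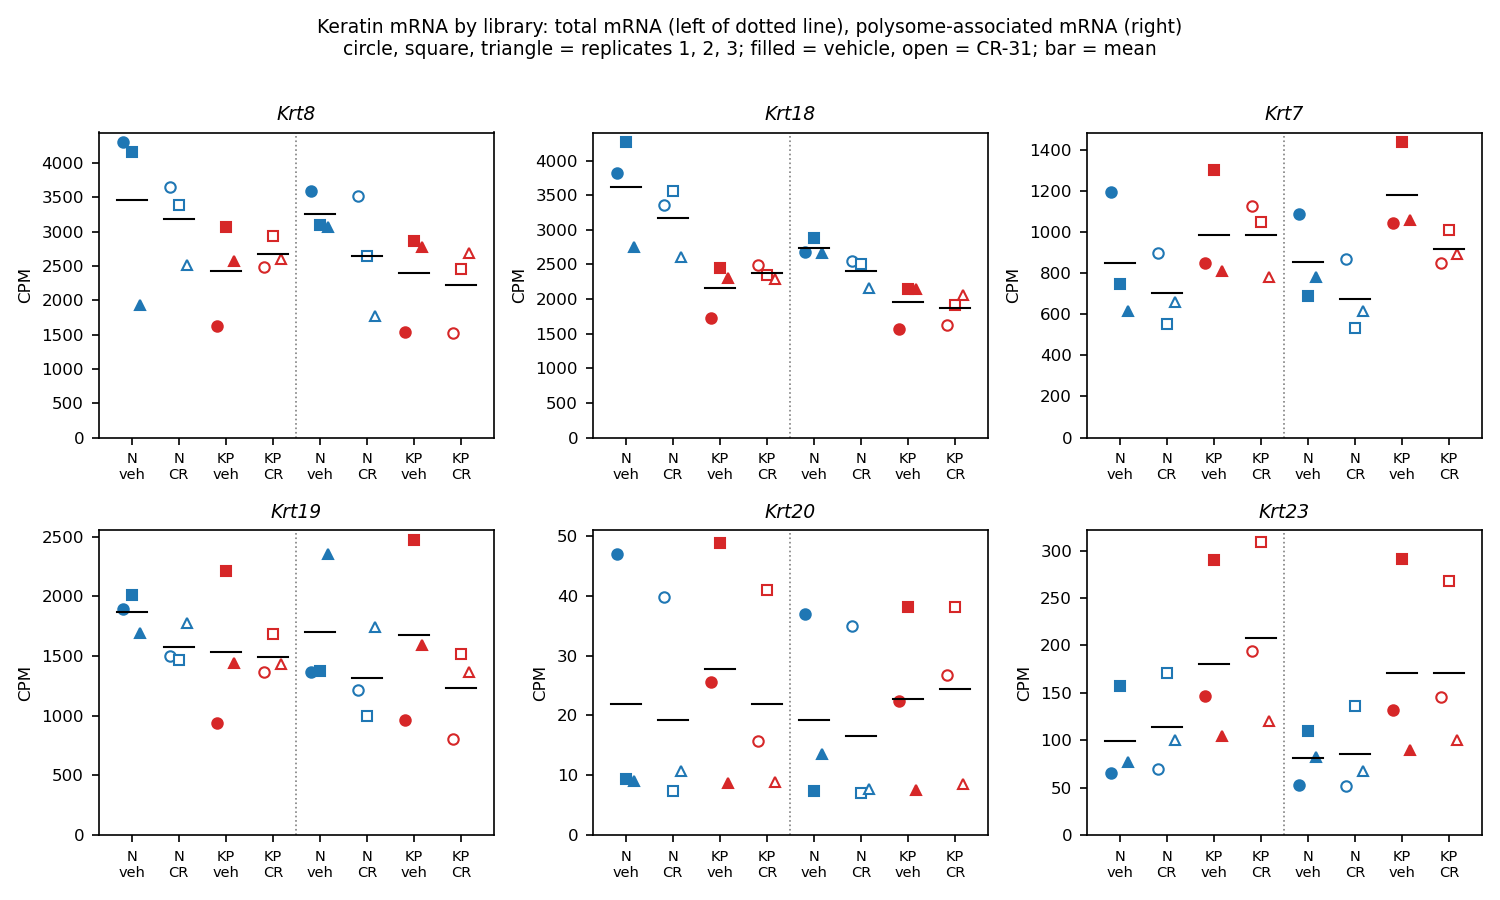
Level of each keratin in all 24 libraries, as CPM on a linear scale, by organoid type, treatment and mRNA fraction, with 1 point per replicate and a bar at the group mean. Krt18 in KP lies below Krt18 in N in both fractions and both treatments, and Krt20 and Krt23 spread widely within every group.

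The first comparison asked how tumour organoids differ from normal ones. Krt18 was lower in KP than in N, whereas Krt7 and Krt23 were higher in polysome-associated mRNA, and Krt8, Krt19 and Krt20 did not pass the test in either fraction. Values below are CPM within 1 gene, fold changes are log2 of KP over N, and a call is an adjusted p under 0.25, the threshold of the study, in edgeR's quasi-likelihood test over all 11438 genes. Of the 6 keratins, 3 were called in polysome-associated mRNA of vehicle-treated organoids, 2 higher and 1 lower, beside 43.1% of all genes (20.9% higher and 22.2% lower). In total mRNA 1 of 6 was called, Krt18, which was lower, beside 28.5% of all genes (15.4% lower). Counts of this size were near the background in the first case and below it in the second. For the 6 keratins the median log2 difference stood at 0.15 (polysome-associated mRNA) and -0.05 (total mRNA), against -0.03 for all tested genes in both. With CR-31, 0 of 6 keratins were called by edgeR in polysome-associated mRNA (beside 25% of all genes) and 1 of 6, again Krt18, in total mRNA (beside 39.9%, with 21% lower). At an unadjusted p under 0.05 there were 0 keratins in both, beside 22.7% and 29.5% of all genes, and DESeq2 called 2, Krt18 and Krt23, in each fraction, beside 3125 and 4719 of the 11438 genes. No sequencing lane or run held both organoid types, so a difference between types cannot be told apart from one between lanes, and in bulk samples fewer cells of a type and less RNA per cell cannot be told apart either.

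Krt18 measured 2685, 2876 and 2661 CPM in polysome-associated mRNA of N replicates 1, 2 and 3 with vehicle, and 1564, 2139 and 2152 CPM in KP. In total mRNA the values were 3826, 4271 and 2753 CPM in N and 1724, 2455 and 2299 CPM in KP. Every KP library was below every N library in both fractions, and KP replicate 1 was the lowest of all. The log2 difference was -0.44 (SE 0.19, adjusted p = 0.138) in polysome-associated mRNA and -0.76 (SE 0.21, adjusted p = 0.0440) in total mRNA. The first call was lost without KP vehicle replicate 1 (-0.30) or N vehicle replicate 2 (-0.43), while the second held with each lysate left out, at -0.92 to -0.61. With CR-31, Krt18 measured 2544, 2509 and 2156 CPM in polysome-associated mRNA of N and 1618, 1912 and 2061 CPM in KP, and 3357, 3555 and 2611 CPM against 2491, 2354 and 2293 CPM in total mRNA. The groups again did not overlap, and the log2 difference was -0.40 (SE 0.19, adjusted p = 0.256, not called) in polysome-associated and -0.43 (SE 0.21, adjusted p = 0.192, called) in total mRNA. The call in total mRNA with CR-31 was lost without KP CR-31 replicate 1 (-0.47), 2 (-0.42) or 3 (-0.39), and without N CR-31 replicate 1 (-0.39) or 2 (-0.34). KP thus lay below N without overlap in 4 of 4 comparisons for Krt18, and the share of all genes that did so in any single one was 17.2%, 16.1%, 13.5% and 13.9%, in the order given. Without N replicate 3, Krt18 was called lower in all 4, at -0.46, -0.91, -0.47 and -0.54, beside 52.6%, 19.3%, 34.7% and 27.2% of all genes called.

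Krt8, the type II partner of Krt18, measured 3592, 3096 and 3073 CPM in polysome-associated mRNA of N with vehicle and 1543, 2863 and 2773 CPM in KP. These groups did not overlap either, but KP replicates 2 and 3 came close to the lowest N value, and the log2 difference of -0.39 (SE 0.32) did not pass the test (adjusted p = 0.414). In total mRNA Krt8 measured 4309, 4160.0 and 1927 CPM in N and 1619, 3075 and 2569.7 CPM in KP, so that N replicate 3 fell among the KP values. The log2 difference was -0.53 (SE 0.31, adjusted p = 0.324). Among the fits with libraries left out, it was called lower where the vehicle lysate of N replicate 3 was left out (-0.82) or all libraries of N replicate 3 were (-0.81, adjusted p = 0.0984, beside 19.3% of genes called). With CR-31 the log2 differences were -0.27 for polysome-associated mRNA and -0.26 for total mRNA, and the groups overlapped. In polysome-associated mRNA with CR-31 the difference was -0.0189 without N CR-31 replicate 1 and -0.50 without N replicate 3, and with vehicle it was -0.15 without KP vehicle replicate 1. Over the 24 libraries log2 CPM of Krt8 and Krt18 went together (r = 0.82, with 0.74 within N and 0.89 within KP), where pairs of libraries share lysates and no test was made.

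**Figure D2:**
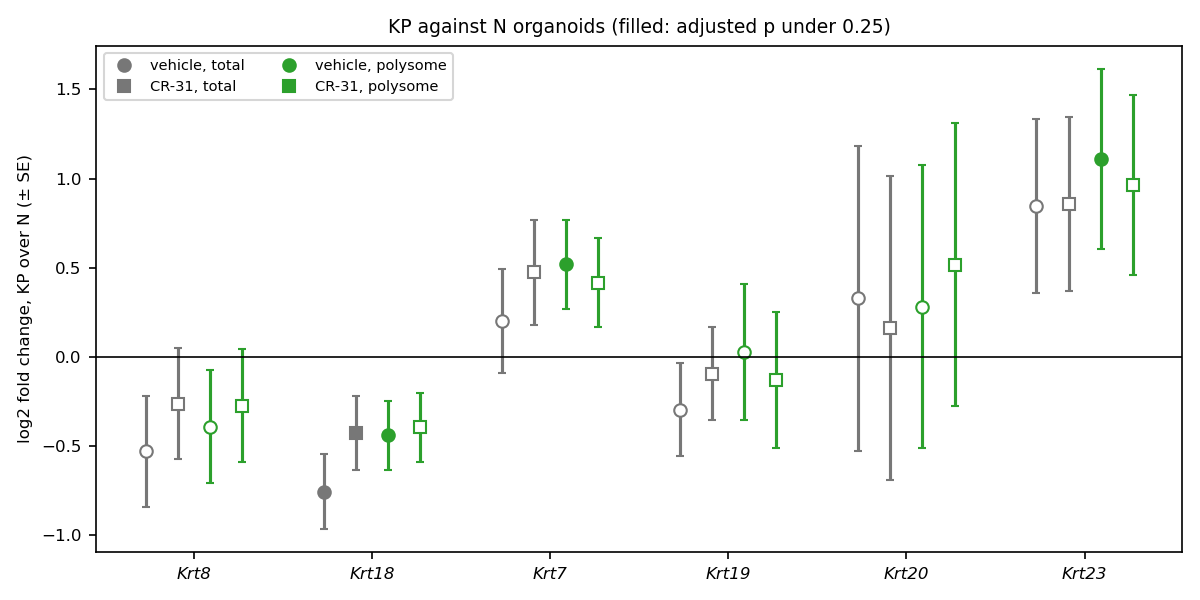
Log2 difference of KP over N for the 6 keratins in each fraction and treatment, with bars of 1 standard error and filled points where the adjusted p was under 0.25. Krt18 is below 0 in all 4 comparisons and Krt7 and Krt23 are above it, while no point of Krt19 or Krt20 is filled and the bars of Krt20 are the widest.

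Krt7, the other type II keratin, measured 1088, 687 and 781 CPM in polysome-associated mRNA of N with vehicle and 1044, 1438 and 1057 CPM in KP. KP replicate 2 was the highest, and N replicate 1 lay within the range of KP, so that the groups overlapped. The log2 difference was 0.52 (SE 0.25, adjusted p = 0.172, called higher), and the call was lost without KP vehicle replicate 2 (0.34), N vehicle replicate 2 (0.36) or the vehicle lysate of N replicate 3 (0.47), and it held at 0.47 without all libraries of N replicate 3, beside 52.6% of genes called. In total mRNA Krt7 measured 1193, 745 and 614 CPM in N and 847, 1303 and 812 CPM in KP, with a log2 difference of 0.20 (SE 0.29, adjusted p = 0.727) that was 0.03 without N replicate 3. With CR-31, Krt7 was higher in KP by 0.42 in polysome-associated (adjusted p = 0.358) and by 0.47 in total mRNA (adjusted p = 0.297), neither of them called.

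Krt19, the type I keratin most used as a ductal marker, did not differ between the types beyond the spread of the replicates. It measured 1367, 1374 and 2357 CPM in polysome-associated mRNA of N with vehicle and 961, 2474 and 1595 CPM in KP, a log2 difference of 0.03 (SE 0.38, adjusted p = 0.972). N replicate 3 and KP replicate 2 were high and KP replicate 1 was low, so that the range of KP enclosed that of N. Without N replicate 3 the difference was 0.35, not called. In total mRNA Krt19 measured 1895, 2010.5 and 1694 CPM in N and 939, 2217 and 1439.8 CPM in KP, with a log2 difference of -0.30 (SE 0.26, adjusted p = 0.528). This was -0.67 without KP vehicle replicate 2 and -0.04 without KP vehicle replicate 1. With the replicate number as a block it was called lower (-0.37, adjusted p = 0.167 by edgeR), beside 56.4% of all genes called. With CR-31 the differences were -0.13 in the polysome-associated and -0.09 in the total fraction, and without N replicate 3 they were 0.12 and 0.0119. The standard error of 0.38 leaves room for a difference of the size seen for Krt18 in polysome-associated mRNA.

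Krt23 measured 53.2, 109 and 82.5 CPM in polysome-associated mRNA of N with vehicle and 132, 291 and 89.6 CPM in KP. KP was above N at each of the 3 replicate numbers, as for 22.8% of all genes, yet KP replicate 3 was below N replicate 2. The log2 difference was 1.11 (SE 0.51, adjusted p = 0.149, called higher), the largest of the 6 keratins in that comparison, and the call was lost without KP vehicle replicate 2 (0.48) or N vehicle replicate 1 (0.85), and it held without N replicate 3 (1.12). In total mRNA Krt23 measured 64.9, 157 and 76.5 CPM in N and 147, 290.3 and 105 CPM in KP, a log2 difference of 0.85 (SE 0.49, adjusted p = 0.319). This was 0.31 without KP vehicle replicate 2 and 1.34 without N vehicle replicate 2. With CR-31 the polysome-associated level differed by 0.96 (log2, adjusted p = 0.286) and the total level by 0.86 (adjusted p = 0.259), neither of them called, with KP above N at 3 of 3 numbers in both, as also in total mRNA with vehicle. The shares of all genes for these 3 cases were 24.3%, 23.9% and 25.4%. With CR-31 the polysome-associated difference was 0.51 without KP CR-31 replicate 2 and 1.46 without N CR-31 replicate 2. In total mRNA it was 0.46 and 1.28 without these lysates. Of the 13 fits with libraries left out, 2 called Krt23 in polysome-associated mRNA with CR-31 and 5 in total mRNA. The replicate numbers do not pair N with KP, and their order is a description only. Krt20 measured 36.99, 7.29 and 13.6 CPM in polysome-associated mRNA of N and 22.3, 38.1 and 7.56 CPM in KP, and 47.1, 9.45 and 9.09 CPM against 25.6, 48.9 and 8.67 CPM in total mRNA. High and low replicates occurred in both types, and the log2 differences of 0.28 (SE 0.79) and 0.33 (SE 0.86) did not pass the test, with adjusted p = 0.841 and 0.856. Without N replicate 3 they were 0.10 and -0.03. With CR-31 they were 0.52 and 0.16, and 0.17 and -0.11 without N replicate 3. The polysome-associated value with CR-31 was 0.07 without KP CR-31 replicate 2 and 1.68 without N CR-31 replicate 1. It was called in 1 of the 13 fits with libraries left out.

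In both Krt20 and Krt23 the level belonged to the replicate more than to the treatment or the fraction. Krt20 stayed between 34.97 and 47.1 CPM in the 4 libraries of N replicate 1, between 6.99 and 9.45 CPM in those of N replicate 2 and between 7.69 and 13.6 CPM in those of N replicate 3. In KP it was 15.8 to 26.8 CPM in replicate 1, 38.1 to 48.9 CPM in replicate 2 and 7.56 to 8.85 CPM in replicate 3. In KP, no library of one replicate overlapped another's, and in N replicate 1 stood above the others. Krt23 was 52.2 to 69.4 CPM in N replicate 1, 109 to 171 CPM in N replicate 2 and 67.7 to 100.3 CPM in N replicate 3. In KP it was 132 to 194 CPM in replicate 1, 268 to 309 CPM in replicate 2 and 89.6 to 119.8 CPM in replicate 3, again without overlap between replicates. The replicate number held 95.7% of the spread of log2 CPM of Krt20 in both organoid types, and 85.7% of that of Krt23 in N and 94.1% in KP, against medians over all tested genes of 57.0% in N and 34.8% in KP. Of the other keratins, the share in N was 73.9% for Krt7, 62.9% for Krt8, 30.1% for Krt19 and 29.7% for Krt18, and in KP it was 73.5% for Krt19, 73.1% for Krt8, 47.9% for Krt7 and 35.1% for Krt18. In N the replicate with high Krt20 had low Krt23 (r = -0.73 over the 12 libraries), whereas in KP replicates ranked alike for both (r = 0.90). These values rest on 3 replicates whose 4 libraries share a replicate number and, within a treatment, a lysate, and they describe the samples only.

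**Figure D3:**
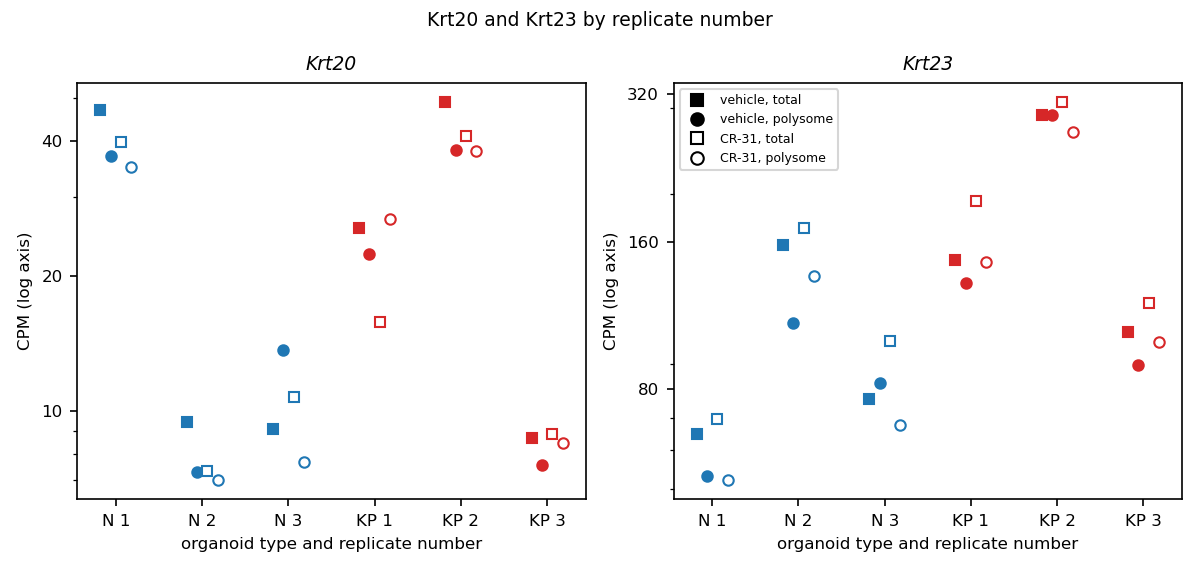
Krt20 and Krt23 by replicate number in N and KP, as CPM on a log scale, with 1 point for each of the 4 libraries of a replicate. The 4 libraries of a replicate sit close together: Krt20 in N replicate 1 is at 34.97 to 47.1 CPM and in N replicate 2 at 6.99 to 9.45 CPM.

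Summed over the 6 genes, keratin reads made up 0.943%, 0.896% and 0.871% of all counted reads in polysome-associated mRNA of N replicates 1, 2 and 3 with vehicle, and 0.517%, 0.869% and 0.752% in KP. The means were 0.903% ± 0.0368 and 0.713% ± 0.179 (SD, n = 3), and the groups did not overlap, although KP replicate 2 was just below N replicate 3. The two-sided exact permutation test gave p = 0.10 for the difference of -0.191 percentage points, which is the smallest p that 3 against 3 samples allow. With 1 lysate left out at a time this difference ranged from -0.269 to -0.0928, the latter without KP vehicle replicate 1. In total mRNA the share was 1.18%, 1.09% and 0.645% in N and 0.536%, 0.912% and 0.710% in KP, with the lowest N replicate, number 3, among the KP values (exact permutation p = 0.30). The difference of -0.253 percentage points was -0.417 without N vehicle replicate 3 and -0.148 without N vehicle replicate 1. With CR-31 the share was 0.921%, 0.722% and 0.600% in N and 0.498%, 0.733% and 0.712% in KP for polysome-associated mRNA (exact permutation p = 0.50), and 1.04%, 0.921% and 0.752% against 0.690%, 0.842% and 0.725% for total mRNA (exact permutation p = 0.20). The differences with CR-31 were -0.0998 and -0.151, and without N replicate 3 they were -0.174 and -0.226. Without N CR-31 replicate 1 they were -0.0130 and -0.0847. None of these 4 comparisons could have passed a threshold of 0.05.

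Because filaments need type I and type II keratins in pairs, the ratio of summed RPKM of Krt18, Krt19, Krt20 and Krt23 over that of Krt7 and Krt8 was formed. It was 1.17, 1.53 and 1.67 in polysome-associated mRNA of N with vehicle and 1.26, 1.41 and 1.35 in KP, and 1.39, 1.75 and 2.36 against 1.41, 1.41 and 1.504 in total mRNA. Per transcript length, the messages for type I keratins exceeded those for type II in every library. The SD over the 3 replicates was 0.488 in total mRNA of N and 0.0526 in KP, and the types overlapped in both fractions and with both treatments (exact permutation p = 0.50 and 0.40 with vehicle, 0.50 and 0.20 with CR-31). The differences of KP from N in the ratio were -0.115 and -0.391 with vehicle and -0.342 and -0.252 with CR-31, and without N replicate 3 they were -0.00722, -0.128, -0.0340 and -0.136. Without N replicate 1 of the same treatment they were -0.260, -0.611, -0.582 and -0.368.

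Polysome-associated mRNA was next compared with total mRNA of the same lysate, which asks how far a message is engaged by ribosomes. In N with vehicle 1 of 6 keratins was called, beside 14% of all genes (4.95% lower): Krt18 was lower in polysome-associated mRNA by -0.38 on the log2 scale (SE 0.14, adjusted p = 0.183). By lysate the log2 ratio of Krt18 was -0.51 and -0.57 in N replicates 1 and 2 and -0.05 in N replicate 3, and the call was lost without N vehicle replicate 1 (-0.32) or 2 (-0.28). N replicate 3 stood apart for the other members as well. Its ratio was 0.67 for Krt8, 0.48 for Krt19 and 0.56 for Krt20, whereas N replicates 1 and 2 gave -0.26 and -0.43 for Krt8, -0.47 and -0.55 for Krt19, and -0.34 and -0.35 for Krt20. Leaving out the libraries of N replicate 3 made 5 of 6 keratins called lower in polysome-associated mRNA of N, beside 33% of all genes called and 15.8% called lower: Krt8 -0.34, Krt18 -0.53, Krt19 -0.50, Krt20 -0.35 and Krt23 -0.40. Leaving out only its vehicle lysate gave 3.

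In KP with vehicle 0 of 6 keratins were called by edgeR, beside 27.6% of all genes, and 0 had an unadjusted p under 0.05, beside 23.4%. Krt7 came nearest at 0.27 (SE 0.15, adjusted p = 0.287), with ratios of 0.30, 0.14 and 0.38 in the 3 lysates, and the KP ratios of Krt18 were -0.14, -0.20 and -0.09. Krt7 was called higher without KP CR-31 replicate 1, without either lysate of N replicate 3, or without all its libraries (0.31, adjusted p = 0.0945, beside 47.4% of all genes). The difference between KP and N in this ratio, the translational efficiency, was called for 0 of 6 keratins and 0 of 11438 genes by edgeR, with 0 keratins and 1281 genes at an unadjusted p under 0.05. Regression of polysome-associated on total mRNA without a block also called 0 keratins, beside 1267 genes. The log2 differences were 0.24 for Krt7, -0.01 for Krt8, 0.23 for Krt18, 0.30 for Krt19, -0.20 for Krt20 and 0.11 for Krt23, with standard errors of 0.20 to 0.29. Without N replicate 3 translational efficiency was called higher in KP for 4 of 6 keratins, Krt19 at 0.65, Krt7 and Krt18 at 0.43 each and Krt23 at 0.31, beside 34.8% of all genes called and 18.5% called higher, while Krt8 (0.35) and Krt20 (0.14) turned sign and were not called. Regression with the replicate block and N replicate 3 kept called another set, Krt7 (0.49), Krt20 (0.62) and Krt23 (1.24) higher and Krt8 (-0.63) lower, beside 54.4% of all genes, with Krt18 at -0.30 and not called. The replicate numbers do not pair the types, and for Krt8 and Krt18 the sign differed between these fits.

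**Figure D4:**
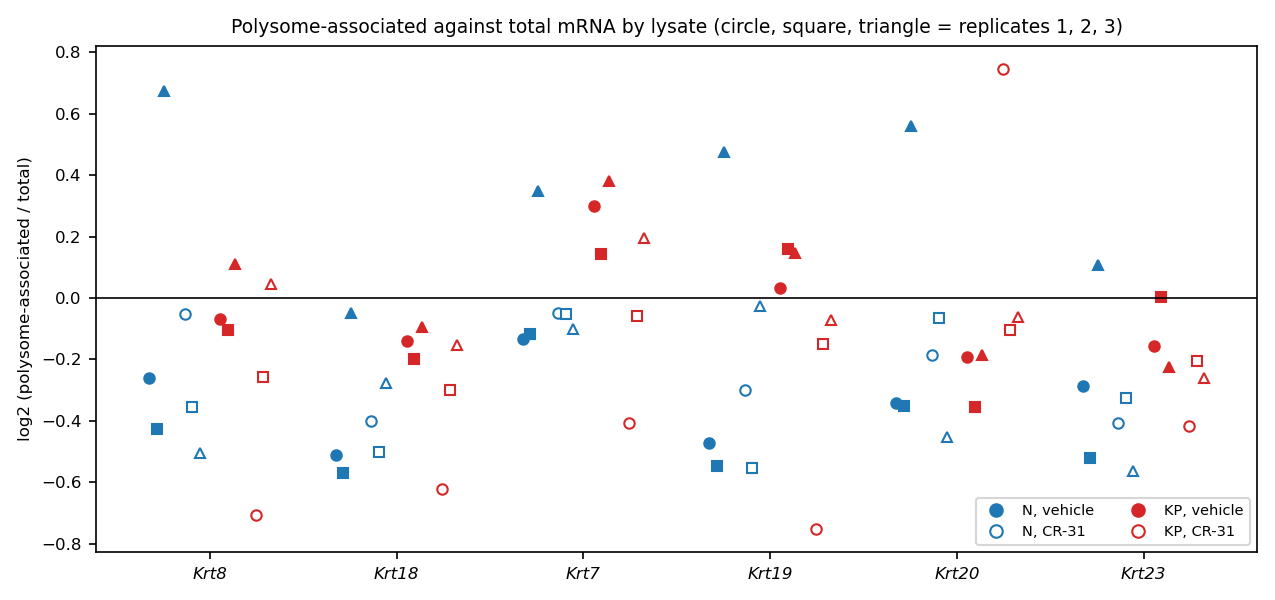
Log2 ratio of polysome-associated over total mRNA for each keratin in each of the 12 lysates, by organoid type and treatment, with a line at 0. N replicate 3 with vehicle is above 0 for Krt8 (0.67), Krt19 (0.48) and Krt20 (0.56), where the other N lysates with vehicle are below it.

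The last comparison asked what 1 h of CR-31 did to keratin messages. With the labels as given, polysome-associated Krt7 and Krt19 were lower with CR-31 in all 3 replicates of both organoid types. In N this includes replicate 3, whose libraries stood apart. Its polysome-associated CR-31 library held 616 CPM of Krt7 and 1742 CPM of Krt19. The total vehicle library that resembled it held 614 and 1694 CPM. Without N replicate 3 the log2 differences in N were -0.32 for Krt7 and -0.29 for Krt19. Neither gene passed the test in the model without replicate numbers. In that model 0 of 6 keratins and 0 of 11438 genes were called in either type and either fraction by edgeR, and DESeq2 called 0 keratins too, with 0 genes in polysome-associated mRNA of either type, 8 in total mRNA of KP and 13 in that of N. At an unadjusted p under 0.05 there were 0 keratins in each, with 406 genes in polysome-associated mRNA of KP, 48 in that of N, 109 in total mRNA of KP and 297 in that of N.

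Polysome-associated Krt7 in KP went from 1044, 1438 and 1057 CPM with vehicle to 850.1, 1007 and 895 CPM with CR-31, changes of -18.5%, -30.0% and -15.3%, and these groups did not overlap, as for 7.91% of all genes with lower levels. In N it went from 1088, 687 and 781 CPM to 869, 531 and 616 CPM, changes of -20.1%, -22.7% and -21.1%. Krt7 was thus lower at every replicate number, though the N groups overlapped, with replicate 1 high throughout. The log2 difference was -0.43 (SE 0.25) in KP and -0.33 (SE 0.25) in N, with adjusted p = 1.00 in both by edgeR. It was -0.26 in KP without KP vehicle replicate 2, and in N -0.12 without N vehicle replicate 1 and -0.54 without N CR-31 replicate 1. Polysome-associated Krt19 went from 961, 2474 and 1595 CPM to 809, 1517 and 1365 CPM in KP, changes of -15.8%, -38.7% and -14.4%, and from 1367, 1374 and 2357 CPM to 1219.6, 996 and 1742 CPM in N, changes of -10.8%, -27.5% and -26.1%. The groups overlapped in both types, and the log2 differences were -0.51 (SE 0.38) and -0.35 (SE 0.38), again with adjusted p = 1.00. They rested on single lysates: the KP value was -0.12 without KP vehicle replicate 2 and -0.80 without KP vehicle replicate 1, and the N value was -0.0328 without N vehicle replicate 3 and -0.62 without N CR-31 replicate 3. Of all genes, 24.8% were lower at 3 of 3 numbers in polysome-associated mRNA of KP and 12.3% in that of N.

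Krt8 was lower in polysome-associated mRNA at 3 of 3 numbers in both types as well, but unevenly, by -0.99%, -14.0% and -2.98% in KP and -2.15%, -14.3% and -42.3% in N. Krt18 changed by 3.47%, -10.6% and -4.23% in KP and by -5.26%, -12.8% and -19.0% in N, where the 3 CR-31 values lay below the 3 vehicle values without overlap, as did 1.41% of all genes. The largest of these shifts, those of Krt8 and Krt18 in N, were in replicate 3. Krt20 and Krt23 moved in both directions in KP, with changes of -0.0447% to 19.6% and of -7.92% to 11.6%. In N, Krt20 was lower at 3 of 3 numbers (-5.37%, -3.86% and -42.0%) and Krt23 was not (-1.88%, 24.2% and -17.9%).

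Within N and within KP the replicate numbers pair the treatments. With the number as a block, 2 of 6 keratins were called lower with CR-31 in polysome-associated mRNA of KP, Krt7 at -0.42 (SE 0.14, adjusted p = 0.196) and Krt19 at -0.46 (SE 0.16, adjusted p = 0.197), beside 19.3% of all genes called and 11.1% called lower. In N the block gave -0.33 for Krt7 and -0.34 for Krt19, each with adjusted p = 0.950, and 0 genes were called. For translational efficiency in KP, regression on total mRNA with the block likewise called Krt7 (-0.42) and Krt19 (-0.48), each with adjusted p = 0.240, beside 13.8% of genes called and 7.76% called lower. The main test of translational efficiency by edgeR, without replicate numbers, called 0 of 6 keratins and 0 of 11438 genes there. It gave -0.36 (SE 0.21) for Krt7 and -0.44 (SE 0.28) for Krt19, each with adjusted p = 0.524. Without KP CR-31 replicate 1 these values were -0.21 and -0.22. The difference of the CR-31 effect between KP and N, tested as an interaction in the model without the block, was -0.10 (SE 0.35) for Krt7 and -0.16 (SE 0.54) for Krt19 in polysome-associated mRNA, and it was called for 0 of 6 keratins and 0 of all genes by edgeR, with 0 keratins at an unadjusted p under 0.05. With the block this difference was -0.08 (SE 0.20, adjusted p = 0.860 by edgeR) for Krt7 and -0.12 (SE 0.23, adjusted p = 0.822) for Krt19. Again 0 of all genes were called. The calls under the block in KP and not in N are therefore not shown to differ between the types.

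Within an organoid type, vehicle replicates 1 and 2 and CR-31 replicate 1 shared a sequencing lane or run, and the other lysates shared the second. On the first of these the log2 difference in polysome-associated mRNA was -0.53 in KP and 0.01 in N for Krt7, and -0.93 and -0.17 for Krt19. On the second it was -0.15 in KP and -0.45 in N for Krt7, and -0.15 and -0.84 for Krt19. Each of these 8 values sets a single lysate of one treatment against the pair of the other, which differ in replicate number. Replicate 1 had both treatments on the first lane and replicate 3 on the second, and for these the changes by replicate number given above are within a lane, lower for Krt7 and Krt19 in each.

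**Figure D5:**
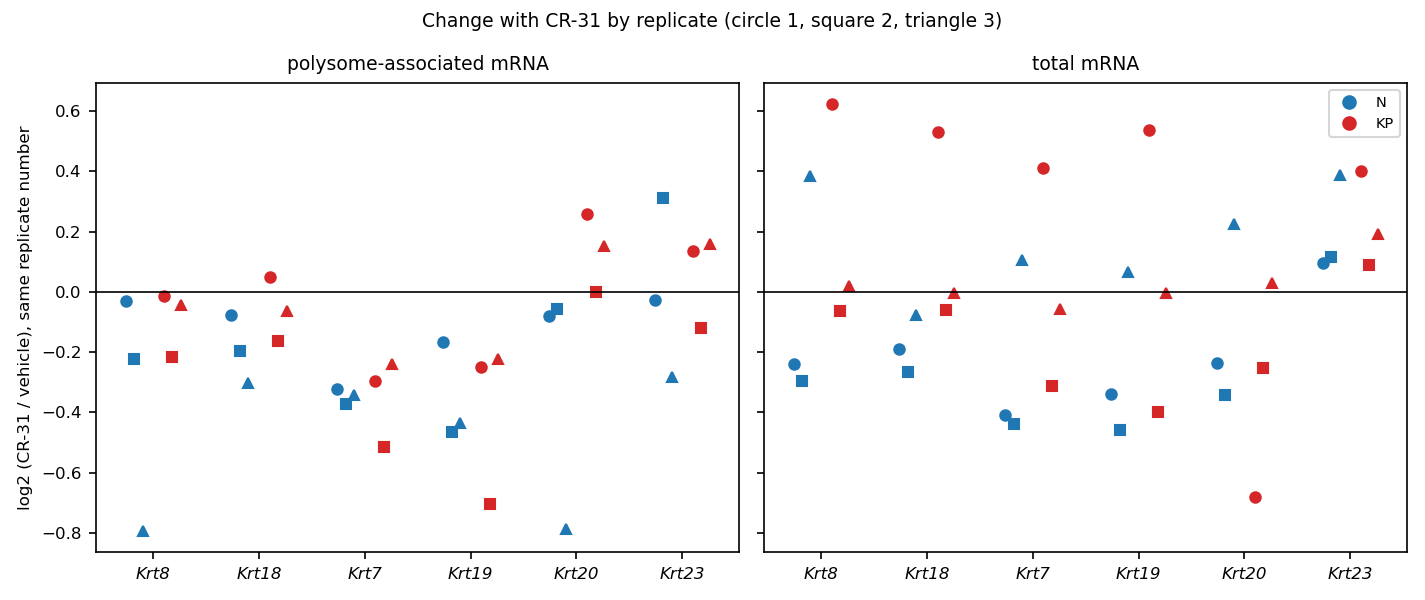
Change of each keratin with CR-31 against vehicle at the same replicate number, as log2 ratios, for polysome-associated and total mRNA of N and KP, with 1 point per replicate and a line at 0. In polysome-associated mRNA the 6 points of Krt7 and the 6 of Krt19 are below 0, while in total mRNA KP replicate 1 is above 0 for Krt7, Krt8, Krt18 and Krt19.

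Total mRNA gave a different picture. In KP replicate 1 the total level was higher with CR-31 by 32.99% for Krt7, 54.0% for Krt8, 44.5% for Krt18 and 45.2% for Krt19, while KP replicates 2 and 3 changed by -24.1% to 1.34% for these genes. KP replicate 1 is the replicate whose total vehicle library resembled its polysome-associated CR-31 library. In N, replicates 1 and 2 were lower for all 4 of these genes, by -27.2% to -12.3%, and replicate 3 was higher for Krt7, Krt8 and Krt19, by 4.76% to 30.5%. Krt23 alone was higher in total mRNA with CR-31 at 3 of 3 numbers in both types, by 32.03%, 6.41% and 14.4% in KP and 6.89%, 8.43% and 30.9% in N, as were 15.3% of all genes in KP and 19.9% in N. Its log2 differences of 0.21 (SE 0.49) and 0.20 (SE 0.49) did not pass the test (adjusted p = 1.00 for both by edgeR).

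Of 12 other keratins, mainly of stratified epithelia, 9 were tested. Among those left out, Krt16 and Krt17 each had a count of 0 in a KP library. In polysome-associated mRNA with vehicle Krt16 averaged 5.60 CPM in N and 0.07 CPM in KP, and Krt17 9.72 and 0.26 CPM. For both genes every N library was above every KP library there, and the counts below leave them out. In polysome-associated mRNA of vehicle-treated organoids, 1 of the 9 was higher in KP, Krt4 of the lining of the mouth and oesophagus at a log2 difference of 4.96, and 3 were lower, Krt6b at -5.31, Krt6a at -4.99 and Krt14, the basal cell keratin, at -4.11. Of all genes 20.9% were called higher and 22.2% lower there, and 13.1% and 15.4% in total mRNA, shares against which the counts for this and the next lists are to be read. In total mRNA the same 4 were called with the same signs (5.52, -5.52, -5.29 and -3.24), and Krt15 was lower as well (-4.12). Krt6a and Krt6b are near-identical copies, and since reads with several matches were discarded their values are uncertain. Krt14 was at most 1.86 CPM in any library, so its fold change rests on low levels. Its means were 0.86 CPM in N and 0.05 CPM in KP in polysome-associated mRNA with vehicle. Over the 9 genes the median log2 difference came to -0.43 for polysome-associated mRNA and to -1.52 for total mRNA. Of the simple keratins the farthest from 0 was Krt23 at 1.11, so that the 4 genes named for both fractions lay farther from 0 than any of them.

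Of 11 desmosome and keratin linker genes, whose proteins tie keratin filaments to cell junctions, 10 were tested. In polysome-associated mRNA 3 were lower in KP and 0 higher, Pkp1 (-2.83), Dsg2 (-1.62) and Dsc2 (-1.34), with a median of -0.41, and in total mRNA 2 were lower, Pkp1 (-2.37) and Dsg2 (-0.79), with a median of 0.12. The 3 of 10 lower in polysome-associated mRNA are near the 22.2% of all genes. Jup, Pkp3, Dsp, Ppl and Pkp2 were not called in either fraction. Of 12 other intermediate filament genes 6 were tested. The nuclear lamins Lmnb2 (1.23 and 1.29) and Lmnb1 (0.98 and 1.10) were higher in KP in both fractions, Nes was lower in polysome-associated mRNA (-1.23), and Vim, the filament protein of mesenchymal cells, was lower in total mRNA (-2.66), with a value of the other sign in polysome-associated mRNA (2.31, adjusted p = 0.348, not called). Vim was under 1 CPM or a few CPM in most libraries, with 22.9 CPM in the polysome-associated vehicle library of KP replicate 3. With CR-31 0 genes of these 3 lists were called in either type or fraction by edgeR.

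The genes whose log2 CPM followed each keratin most closely over the 24 libraries included Chst14 (r = 0.90) and Rsu1 (0.89) for Krt18, and Trip6, Clcn7 and Atp6v1b2 (0.84 each) for Krt8. For Krt7 they were Aacs, Pcsk6 and Smyd2 (0.88 each), and for Krt19 Ctsd (0.93), Tagln2 (0.86) and Serinc2 (0.81). Krt20 was followed by Nt5dc3 (0.93), Onecut3 (0.90) and Slc1a4 (0.89), and Krt23 by Scgb3a1 (0.94), Cnp (0.89) and Npas2 (0.89). No other member was among the 3 closest genes of any keratin. The points share lysates, lanes and organoid types, and no test was made.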

How the data were processed

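Total and polysome-associated mRNA of 12 organoid lysates was sequenced. Reads were aligned with HISAT2 and handled with SAMtools, reads with several matches were discarded, and reads were counted on mouse RefSeq genes, although the notes name a human genome build. The raw counts per gene that the authors deposited were tested, and the RPKM values that the authors deposited beside them, scaled to transcript length and mapped reads, were used only to compare levels between keratins.

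The 6 members and the gene lists were chosen with earlier results of these data known. Named genes were the members, in each list the 6 most abundant or the 4 most changed among those called, and the 3 genes most correlated with each member; some genes that these rules or lists take in are not reported here. Of the table's entries, 1042 list several symbols and 136 symbols recur; these were left out, as were genes with a count of 0 in any library. Counts were scaled by TMM and fitted in edgeR 4.0.16 (R 4.3.3) by its quasi-likelihood test, in 1 model of the 4 groups per fraction, with Benjamini-Hochberg adjustment over 11438 genes and a threshold of 0.25 as in the study. Translational efficiency was the interaction of fraction and group over 24 libraries, with the lysate as a block. CPM values are relative to TMM-scaled library sizes, and correlations are of log2(CPM + 0.5). Shares and ratios were compared with exact permutation tests (scipy 1.17.1). The code was tested on simulated data. Alternatives were RLE scaling, no filter, DESeq2 1.42.0, a lane term, a replicate block, regression on total mRNA (limma 3.58.1), and leaving out each lysate.

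Whether replicate numbers pair samples was checked from the correlation, over genes, of deviations from group means. For vehicle with CR-31, r was 0.54 to 0.91 in N and 0.36 to 0.87 in KP and exceeded 0.1 in 6 of 6 pairs in each, so the labels' numbers pair the treatments. N with KP gave r over 0.1 in 2 of 6 pairs with vehicle and 3 of 6 with CR-31, so they do not pair the types.

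With these depths the spread between replicates, not counting error, limits the precision for every keratin.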

Additional observations from a re-analysis of the deposited data

How the results depend on the processing

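Krt18 kept its lower level in KP under every alternative run for all 4 comparisons of the types, and Krt8 was below and Krt23 above N likewise, though Krt8 came as near to 0 as -0.0189 with a lysate left out, and calls turned on the setting. With CR-31, RLE scaling called 1 keratin in polysome-associated and 2 in total mRNA (beside 2847 and 4635 of 11438 genes), DESeq2 called 2 in each (3125 and 4719), and no filter called 0 in total mRNA (4564 of 16175). With the replicate block within each organoid type, KP against N called 5 keratins with vehicle and 5 with CR-31 in polysome-associated mRNA, and 5 and 3 in total mRNA, beside 68.8%, 58.2%, 56.4% and 65.1% of all genes. Since the block removes the spread between replicate numbers of the same type, these p-values are too small for independent replicates. The paired fits with the block also called 2 keratins for CR-31 in polysome-associated mRNA of KP and, by regression on total mRNA, 4 for translational efficiency of KP against N (beside 54.4% of all genes) and 2 for that of CR-31 in KP, and they changed no other count. A lane term for CR-31 changed no call.

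Leaving out lysates, the keratins called for KP against N numbered 1 to 3 with vehicle and 0 to 2 with CR-31 in polysome-associated mRNA, and 1 to 2 and 0 to 3 in total mRNA. They numbered 0 to 4 for translational efficiency of KP against N, and 0 to 5 in N and 0 to 1 in KP for polysome-associated against total mRNA. The sign changed for members that were not called: Krt19 ranged from -0.37 to 0.35 with vehicle (-0.0253 with the block) and -0.31 to 0.13 with CR-31 in polysome-associated mRNA, and -0.18 to 0.0119 with CR-31 in total mRNA. Krt20 ranged from -0.33 to 1.12 with vehicle in polysome-associated mRNA, and from -0.38 to 1.57 with vehicle and -0.66 to 1.26 with CR-31 in total mRNA. Krt7 ranged from -0.0576 to 0.53 with vehicle in total mRNA. The difference in the keratin share with CR-31 in polysome-associated mRNA of KP ranged from -0.163 to 0.0131 percentage points. Counts stayed within 1.5 times, and shares and ratios kept their sign, in 64 of 76 cases under other settings and 232 of 264 with libraries left out. The causes were not tested.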
